A study of Mus musculus with 2 samples.

Results

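Aerocytes with transcripts of Serpina3k or Serpina3m were 1068 of the 8297 cells of the chimeric mouse lung that passed quality control, and 1068 of its 2054 aerocytes. They were chosen by unique molecular identifiers (UMIs, each a counted transcript molecule) in single cells. A cell with at least 1000 UMIs and under 7% mitochondrial UMIs counted as an aerocyte with at least 3 Ednrb, at least 3 Car4, at most 3 Plvap, at least 1 Cdh5 and at most 4 Ager UMIs. It counted as a Serpina3k/m aerocyte with at least 1 UMI of Serpina3k and Serpina3m together, and the 986 aerocytes with none are called the other aerocytes. Since these 7 genes selected the cells, their values describe the selection and support nothing.

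The cells came from 3 C57Bl mice that had received a lung-cell suspension from tdTomato-labelled donors 6 months earlier. The lungs of the 3 mice were pooled and sorted as live CD45-negative cells into tdTomato-positive donor cells and tdTomato-negative recipient cells, each giving 1 library on the 10x Genomics platform. The donor strain, the reporter's promoter, the animals' ages and any conditioning of the recipients are not given in the sources used here, and animals cannot be told apart within a library. The donor library held 741 Serpina3k/m aerocytes among 1440 aerocytes, and the recipient library held 327 among 614. Since each group is 1 library and cells are not replicates, no p-value is given. All intervals are 95% intervals for counting error only.

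The donor library held 4945 cells past quality control out of 6319 barcodes, with a median of 6196 UMIs. The recipient library held 3352 cells out of 3784 barcodes, with a median of 6408.5 UMIs. Both libraries shared 816 barcodes, of which only the copy with more UMIs was kept, and 2 donor and 14 recipient Serpina3k/m aerocytes carried such a barcode. The Serpina3k/m aerocytes were somewhat deeper than the other aerocytes, with median UMIs of 9055 against 8669 in the donor library and 8269 against 7444 in the recipient library. Levels are given as CPM, a gene's UMIs per 1000000 summed UMIs of a cell group, so depth is scaled out of a level but not out of the threshold of 1 UMI.

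Aerocytes are the large, thin capillary endothelial cells of the alveolus that lie against alveolar type 1 cells and serve gas exchange. The general capillary cell is the other capillary type and is known as its progenitor. Serpins are protease inhibitors that present a loop near the end of the protein, the reactive centre loop, as bait to a target protease. The human gene SERPINA3, which encodes alpha-1-antichymotrypsin, corresponds in the mouse to a cluster of related genes whose loops differ. Serpina3k is known in rodents as a kallikrein-binding plasma protein and Serpina3n as an inhibitor of granzyme B, whereas Serpina3g acts inside cells on lysosomal cathepsins.

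In the GRCm38 annotation the members of the cluster that were measured lay on chromosome 12, plus strand, in the order Serpina3f, Serpina3g, Serpina3k, Serpina3m and Serpina3n. Serpina3k lay at chr12:104338486-104346144 and Serpina3n at chr12:104406729-104414329. Serpina3m was annotated at chr12:104338486-104394257, because 1 of its transcripts begins at the first base of Serpina3k. Of the 2057 exonic bases of Serpina3k, 60 were also exonic in Serpina3m, and 0 of its last 500. Each loop was encoded in the last coding exon, and the coding stretches are shown because they separate transcripts that are otherwise closely related. Each stretch runs 5′ to 3′ on the plus strand, from the hinge of the loop to the codon before the conserved motif that follows it. Capitals mark bases that do not match Serpina3k in a global alignment, and the sequences were cut from the GENCODE M21 transcripts.
Serpina3k, chr12:104345269-104345337: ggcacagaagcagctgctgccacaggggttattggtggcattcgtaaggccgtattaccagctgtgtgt
Serpina3m, chr12:104393769-104393843: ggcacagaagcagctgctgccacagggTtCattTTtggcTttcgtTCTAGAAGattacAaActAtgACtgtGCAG
Serpina3n, chr12:104413448-104413522: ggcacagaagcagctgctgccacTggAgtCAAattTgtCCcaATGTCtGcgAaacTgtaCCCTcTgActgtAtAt
Serpina3g, chr12:104241072-104241146: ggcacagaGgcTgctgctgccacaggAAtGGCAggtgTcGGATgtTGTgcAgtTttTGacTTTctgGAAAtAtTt
Serpina3f, chr12:104220245-104220322: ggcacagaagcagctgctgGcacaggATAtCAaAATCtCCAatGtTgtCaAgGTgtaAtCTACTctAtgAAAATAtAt

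The opening bases of the loop were largely shared across the cluster, whereas the bases after them diverged. Serpina3m matched Serpina3k at 53 of its 75 bases, Serpina3n at 51 of 75, Serpina3g at 46 of 75 and Serpina3f at 45 of 78. The ends of the transcripts could be told apart as well. Of 411 windows of 90 bases in the last 500 bases of each of these transcripts, 0 occurred unchanged in another gene of the cluster. Windows with at most 3 mismatches to another gene numbered 4 of 411 in Serpina3k and 0 in the other 4 genes, so a small part of the Serpina3k reads could have been split by the authors' counting.

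Serpina3k and Serpina3m were both used by the rule, so their joint detection in aerocytes is given only as a description. Among donor Serpina3k/m aerocytes, 318 had both transcripts, 365 had Serpina3m only and 58 had Serpina3k only. Among the recipient cells the numbers were 135, 162 and 30. Of the aerocytes with a Serpina3m UMI, 46.6% (42.8 to 50.4) also had a Serpina3k UMI in the donor library, against 7.66% (5.87 to 9.79) of those without one. In the recipient library the shares were 45.5% (39.7 to 51.3) and 9.46% (6.48 to 13.2). The intervals are exact binomial (Clopper-Pearson) intervals for counting error only, and cells are not replicates. Depth was not held level. Median UMIs were 9557 in donor cells with both transcripts, 8886 with Serpina3m only and 7913 with Serpina3k only. In the recipient library they were 8455, 8271 and 7825.5. The part of depth in the joint detection was not tested.

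Summed over the cells, Serpina3m gave 1909 UMIs and Serpina3k 1050 in the donor library, and 813 and 451 in the recipient library. Serpina3m was thus 64.5% (62.8 to 66.2) of both genes' UMIs in donor cells and 64.3% (61.6 to 67.0) in recipient cells. In the remaining donor endothelial cells it was 67.7% (63.6 to 71.6). In recipient fibroblasts, defined by collagen and decorin UMIs without Cdh5, 131 UMIs were Serpina3m and 3 were Serpina3k, which is 97.8% Serpina3m (93.6 to 99.5).

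Most cells held few UMIs of these genes. The median was 3 Serpina3k plus Serpina3m UMIs in donor Serpina3k/m aerocytes, with a maximum of 25, and 2 in recipient cells, with a maximum of 33. A single UMI was the whole basis for 200 of the 741 donor cells and 100 of the 327 recipient cells. At the upper end, 211 and 94 cells had 5 or more, and 56 and 25 had 10 or more. In the histogram of UMIs per aerocyte, 0 was the most frequent count, with 699 donor and 287 recipient cells, and every count from 1 to 9 was occupied. With so few UMIs per cell, the histogram cannot show whether the cells form 1 range or 2 classes. Near the other limits, 25 donor and 9 recipient cells had exactly 3 Ednrb UMIs, and 14 and 11 cells with Serpina3k/m UMIs missed the rule with 2. A further 7 donor and 0 recipient cells missed it with 4 Plvap UMIs, and 2 and 0 with 5 Ager UMIs.

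**Figure D1:**
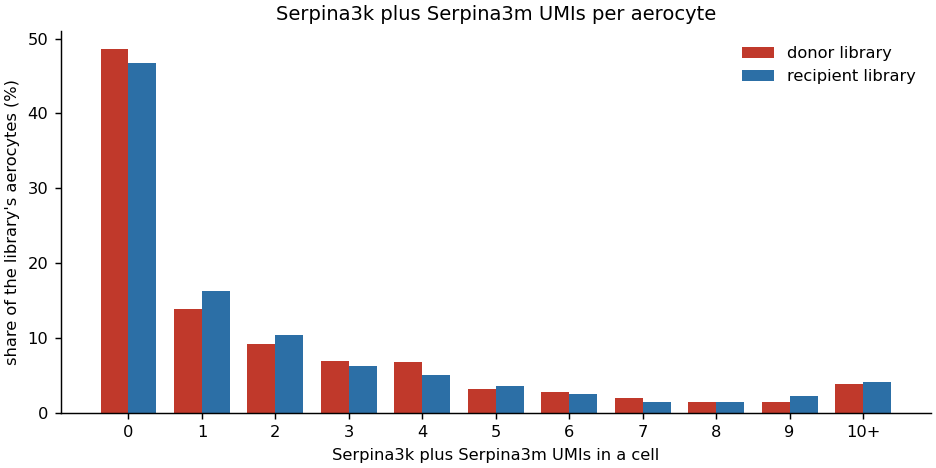
Share of each library's aerocytes (y axis, percent) by the number of Serpina3k plus Serpina3m UMIs in the cell (x axis), with red bars for the donor library and blue bars for the recipient library; the last bin holds cells with 10 or more. The share is 48.5% of donor and 46.7% of recipient aerocytes at 0 UMIs and 13.9% and 16.3% at 1 UMI, and every count up to 9 holds cells.

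The share of aerocytes above the limit was alike in both libraries. It was 51.5% (48.8 to 54.1) of donor aerocytes and 53.3% (49.2 to 57.3) of recipient aerocytes. Since deeper cells pass a limit of 1 UMI more easily, each aerocyte was also thinned to 5000 UMIs, leaving out 106 donor and 99 recipient cells that were shallower. The share was then 42.8% (40.1 to 45.5) of donor and 44.9% (40.5 to 49.3) of recipient aerocytes. With at least 2 UMIs required, it was 37.6% and 37.0%. The intervals of the libraries overlapped under each setting.

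Outside aerocytes the share of cells with these transcripts differed between cell groups. A Serpina3k or Serpina3m UMI was found in 1.69% (1.24 to 2.26) of donor general capillary cells and 2.43% (1.22 to 4.31) of recipient ones, at median depths of 5471.5 and 5852 UMIs. In alveolar type 1 cells, which should lack both genes, it was found in 0 of 44 donor cells (upper bound 8.04%) and in 1 of 195 recipient cells, 0.513% (0.013 to 2.82), at median depths of 1914 and 14358 UMIs. Endothelial cells that met neither capillary rule had a share of 24.5% among donor cells and 11.2% among recipient cells. That group, at median depths of 7325.5 and 6429 UMIs, also held Rspo3, at 90.1 and 36.0 CPM, and it held 194 of the 319 donor barcodes with the highest doublet scores. Among fibroblasts the share was 10.5% (8.67 to 12.6) of 979 recipient cells, at a median depth of 7104 UMIs, and 2 of 13 donor cells. Among pericytes it was 0 of 45 donor cells and 1.55% (0.67 to 3.03) of 517 recipient cells.

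The label of aerocyte was checked on 16 listed aerocyte markers outside the rule, such as Tbx2, Apln and Kdr. They summed to 28502 CPM in donor and 29472 CPM in recipient Serpina3k/m aerocytes, and to 28759 and 30133 CPM in other aerocytes, against 3847 and 3806 CPM in general capillary cells. All 16 had UMIs in both libraries' Serpina3k/m aerocytes. The markers given for these cells outside the rule, Rspo3, Tmeff2 and Fndc1, were found in aerocytes as a whole. They stood less than 1.5-fold apart between Serpina3k/m and other aerocytes in both libraries. Rspo3, which amplifies Wnt signalling, stood at 190 CPM in donor Serpina3k/m aerocytes against 195 in donor other aerocytes, and at 213 against 219 CPM in the recipient library. Tmeff2, a transmembrane protein with follistatin-like domains, stood at 210 against 203 CPM and at 196 against 205 CPM. Fndc1, a fibronectin type III domain protein, stood at 99.6 against 81.4 CPM and at 105 against 96.9 CPM. In general capillary cells the 3 genes were between 0.334 and 4.89 CPM in either library. In the aerocyte list 0 of 16 and in the general capillary list 0 of 8 measured markers were at least 1.5-fold apart in both libraries. Over all genes 0.29% were higher and 0.22% lower, so counts of 0 do not show that the groups were alike.

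What set the Serpina3k/m aerocytes apart was the rest of their own gene cluster. Of 10012 genes with at least 20 UMIs in each library, 29 (0.29%) were at least 1.5-fold higher in Serpina3k/m aerocytes in both libraries and 22 (0.22%) were at least 1.5-fold lower. The 29 include Serpina3k and Serpina3m, which the rule itself set to 0 in the other aerocytes. Without the 7 genes of the rule, 27 of 10005 genes were higher and 22 lower. Requiring also 20 CPM in the higher group and intervals that excluded equality left 4 higher genes and 1 lower gene. The higher genes were Serpina3n, Serpina3g, Serpina3f and Lyve1, and the lower gene was Col18a1. These 3 serpins were all 3 of the cluster's members outside the rule that had enough UMIs to be measured.

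Serpina3n was the most widely detected of them. It stood at 631 CPM in donor Serpina3k/m aerocytes against 149 CPM in donor other aerocytes, a log2 ratio of 2.08 (1.98 to 2.19). In the recipient library it stood at 750 against 175 CPM, a log2 ratio of 2.10 (1.94 to 2.26). It was detected in 710 of the 741 donor and 318 of the 327 recipient Serpina3k/m aerocytes. After thinning to 5000 UMIs, the share of cells with a Serpina3n UMI was 88.7% against 31.9% in the donor library and 94.0% against 32.3% in the recipient library, while the unthinned shares were 95.8% against 36.6% and 97.2% against 39.0%.

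Serpina3g and Serpina3f were sparser but differed by a similar factor. Serpina3g stood at 90.2 against 19.4 CPM in the donor library and at 60.7 against 14.4 CPM in the recipient library, with log2 ratios of 2.22 (1.93 to 2.51) and 2.07 (1.52 to 2.67). Serpina3f stood at 73.0 against 20.7 CPM and at 59.7 against 17.6 CPM, with log2 ratios of 1.82 (1.53 to 2.11) and 1.76 (1.25 to 2.31). In thinned cells Serpina3g was seen in 32.1% against 7.10% of donor and 22.6% against 7.33% of recipient aerocytes, with unthinned shares of 43.5% against 9.73% and 31.8% against 8.01%. The intervals of both genes' ratios overlapped that of Serpina3n in each library.

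The remaining members of the cluster were nearly silent. Serpina3c gave 21 and Serpina3i 18 UMIs in donor Serpina3k/m aerocytes, and 14 and 5 UMIs in recipient ones, too few to be measured against the other aerocytes. Serpina3a, Serpina3b and Serpina3j gave 0 UMIs in both libraries, and Serpina3h was not analysed here.

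The same 3 serpins differed between other cell groups, as did Serpina3k and Serpina3m. Serpina3g reached 39.7 CPM in donor and 87.5 CPM in recipient general capillary cells, and Serpina3f reached 22.6 and 55.8 CPM, whereas Serpina3n stood at only 6.03 and 25.4 CPM there. Serpina3n was also abundant in recipient fibroblasts, at 398 CPM, where Serpina3k stood at 0.403 and Serpina3m at 17.6 CPM. Serpina3k and Serpina3m were fixed by the rule, so only the 3 other serpins can be set against the Serpina3k/m aerocytes. Recipient general capillary cells held more Serpina3g than recipient Serpina3k/m aerocytes, which stood at 60.7 CPM.

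**Figure D2:**
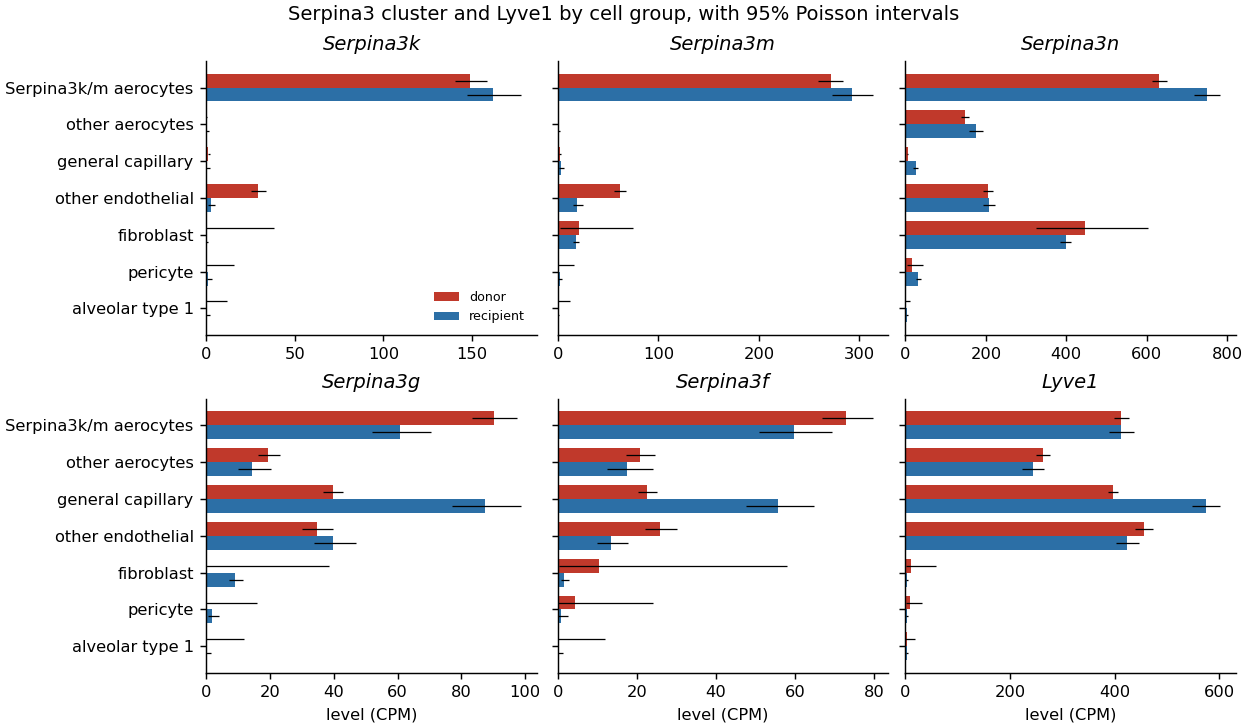
Level (x axis, CPM) of Serpina3k, Serpina3m, Serpina3n, Serpina3g, Serpina3f and Lyve1 in 7 cell groups (y axis), with red bars for the donor library, blue bars for the recipient library and lines for 95% Poisson intervals of counting error; the donor fibroblast, pericyte and alveolar type 1 groups have 13, 45 and 44 cells. Serpina3n is high in Serpina3k/m aerocytes and fibroblasts, and Serpina3g and Lyve1 are also high in general capillary cells.

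The promoters of the 3 serpins are shown because these genes moved together in cells chosen by their neighbours. Each is the stretch from 250 bases before to 50 bases after the start site, on the plus strand of GRCm38.p6 as given by RefSeq, and for Serpina3f the first of its start sites is printed. Capitals mark TTCNNNGAA, the palindromic core bound by STAT transcription factors, which act downstream of acute-phase cytokines.
Serpina3n, chr12:104406458-104406757: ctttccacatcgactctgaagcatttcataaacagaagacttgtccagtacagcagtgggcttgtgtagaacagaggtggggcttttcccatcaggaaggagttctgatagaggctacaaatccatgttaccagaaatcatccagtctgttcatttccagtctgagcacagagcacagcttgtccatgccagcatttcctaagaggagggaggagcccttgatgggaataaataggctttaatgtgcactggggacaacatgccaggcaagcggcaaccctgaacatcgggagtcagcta
Serpina3g, chr12:104235897-104236196: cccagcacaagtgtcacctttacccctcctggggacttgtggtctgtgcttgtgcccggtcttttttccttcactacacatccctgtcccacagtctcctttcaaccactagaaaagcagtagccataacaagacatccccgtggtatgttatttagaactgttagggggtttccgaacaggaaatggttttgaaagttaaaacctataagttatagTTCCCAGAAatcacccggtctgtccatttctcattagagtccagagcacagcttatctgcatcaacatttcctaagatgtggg
Serpina3f, chr12:104214294-104214593: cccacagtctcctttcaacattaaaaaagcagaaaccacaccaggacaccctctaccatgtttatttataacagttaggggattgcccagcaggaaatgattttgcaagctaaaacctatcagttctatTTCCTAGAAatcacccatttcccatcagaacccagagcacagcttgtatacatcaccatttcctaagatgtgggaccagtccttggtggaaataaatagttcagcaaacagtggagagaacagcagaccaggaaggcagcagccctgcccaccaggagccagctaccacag

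The motif reads the same on both strands, so 1 search covered both. It occurred 0 times in the Serpina3n window and 1 time each in the Serpina3g and Serpina3f windows, against 8.3% of all 32851 mouse promoter windows with at least 1 match. Among the other cluster members with a window, the nearly silent Serpina3i had 1 match, and Serpina3a, Serpina3b, Serpina3c and Serpina3j had 0. The Serpina3g and Serpina3f matches lie in similar sequence of related genes, so they need not be independent. A match is a description of the letters and not a binding site.

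Few genes of the acute-phase response could be read beside the serpins. Of the 20 acute-phase and STAT3 genes listed, 12 were measured and 0 were at least 1.5-fold apart in both libraries, which is near the share over all genes. Socs3, a feedback inhibitor that STAT3 induces, stood at 407 against 395 CPM in the donor library and 306 against 305 CPM in the recipient library. Lrg1, a secreted glycoprotein of the acute phase that endothelium also makes, stood at 191 against 150 CPM and at 194 against 141 CPM, higher in both libraries but below the fold. The list's median log2 ratio was 0.02 in the donor and 0.07 in the recipient library, beside -0.02 and -0.004 over all genes measured. Of the 12 glucocorticoid-response genes 11 were measured and 0 were apart, and Tsc22d3, which glucocorticoids induce, stood at 76.0 against 82.0 CPM and at 87.3 against 89.7 CPM.

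For the other pathways listed, counts of 0 are again near the share over all genes and do not show that the groups were alike. Of 19 measured interferon genes, 21 immediate-early genes, 15 p53 targets and 8 MHC class I genes, 0 in each list were apart. Ifit1, an interferon-induced gene, was lower in both libraries without passing the fold in the donor library, at 31.4 against 46.2 CPM and at 19.4 against 38.3 CPM, with log2 ratios of -0.56 and -0.98 and both intervals below 0. The same held for 14 measured angiogenesis genes, 10 Wnt and R-spondin genes, 21 BMP and TGF-beta genes and 9 Notch genes. Of 6 measured proteases that serpins of this kind can meet, 0 were apart, and Ctsl, encoding cathepsin L, stood at 618 against 623 CPM in the donor library and 626 against 606 CPM in the recipient library. Among 9 measured serpins of other clusters 0 were apart. Serpinb9, encoding an inhibitor of granzyme B, stood at 86.4 against 79.9 CPM and at 76.9 against 68.5 CPM. Il1a, an interleukin that part of the aerocytes carried, stood at 103 against 90.2 CPM in the donor library, a log2 ratio of 0.19 (0.03 to 0.35), and at 89.5 against 61.3 CPM in the recipient library, a log2 ratio of 0.55 (0.24 to 0.86), just below the fold. It was seen in 31.0% against 29.8% of thinned donor cells and in 29.0% against 23.3% of thinned recipient cells, with overlapping intervals and unthinned shares of 42.5% against 39.6% and 35.5% against 28.2%.

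**Figure D3:**
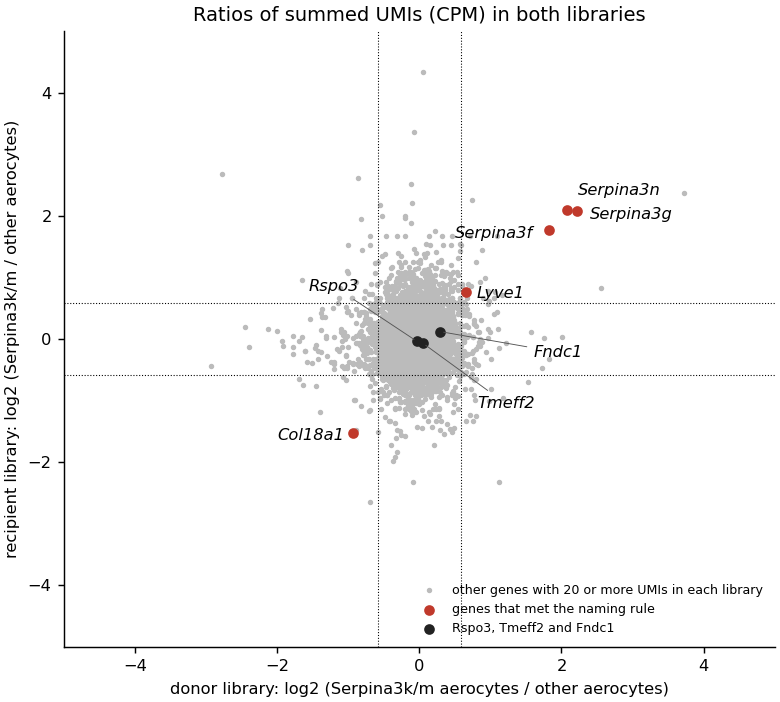
Log2 ratio of Serpina3k/m aerocytes over other aerocytes for 10005 genes, donor library on the x axis and recipient library on the y axis; dotted lines stand at 1.5-fold, red points are the genes that met the naming rule and black points are Rspo3, Tmeff2 and Fndc1. Serpina3n, Serpina3g and Serpina3f lie together at about 2 on both axes, apart from the body of genes around 0, and the black points lie in that body.

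Lyve1, a hyaluronan receptor best known from lymphatic endothelium, was the one higher gene from outside the cluster that met this rule. It stood at 413 against 263 CPM in the donor library and at 412 against 244 CPM in the recipient library, with log2 ratios of 0.65 (0.56 to 0.74) and 0.76 (0.61 to 0.91). It was also present in general capillary cells, at 396 and 574 CPM. Of the 5 lymphatic markers in the matrix, Prox1 was at 0 in donor Serpina3k/m aerocytes and Reln was at 0 in recipient ones, and Lyve1 gave most of the list's summed level of 456 and 464 CPM.

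Col18a1, whose basement-membrane collagen carries the endostatin fragment, went the other way. It stood at 18.8 against 35.7 CPM in the donor library and at 9.70 against 27.9 CPM in the recipient library, with log2 ratios of -0.93 (-1.25 to -0.61) and -1.53 (-2.23 to -0.85). Recipient fibroblasts held it at 89.9 CPM and recipient pericytes at 28.4 CPM. The 9 pericyte markers summed to 67.3 against 148 CPM in the donor library and 648 against 783 CPM in the recipient library. Without the cells that had more than 2 UMIs of stromal, leukocyte, red cell or platelet markers, the log2 ratios of Col18a1 were -0.98 and -1.34. With at least 2 Serpina3k plus Serpina3m UMIs required they were -1.30 and -2.47.

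Acta2 and Lyz2 passed the fold in both libraries but were carried by few cells or UMIs. Acta2, encoding smooth muscle actin, had 227 UMIs in donor Serpina3k/m aerocytes, of which 221 lay in 1 cell. Lyz2, a lysozyme of type 2 alveolar cells and macrophages, stood at 12.1 against 5.38 CPM and at 11.1 against 6.76 CPM, and its recipient interval included equality.

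Levels of the companion genes followed the number of Serpina3k plus Serpina3m UMIs in a cell. This grading was added after the values had been seen. Serpina3n stood at 149, 464, 622 and 775 CPM in donor aerocytes with 0, 1, 2 to 4 and 5 or more UMIs, and at 175, 536, 703 and 1009 CPM in recipient aerocytes. Serpina3g stood at 19.4, 61.8, 80.0 and 127 CPM in the donor library and at 14.4, 43.5, 56.7 and 82.0 CPM in the recipient library. In both libraries the intervals of the cells with a single UMI already lay wholly above those of the cells with none for both genes.

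Serpina3f stood at 20.7, 44.3, 62.4 and 110 CPM in donor cells and at 17.6, 57.1, 46.8 and 78.5 CPM in recipient cells, where the middle classes overlapped within their intervals. Lyve1 stood at 263, 304, 383 and 540 CPM and at 244, 310, 380 and 547 CPM, nearly the same in both libraries. Lrg1 stood at 150, 157, 183 and 230 CPM and at 141, 186, 160 and 246 CPM. Fndc1 stood at 81.4, 88.0, 93.1 and 118 CPM in donor cells and at 96.9, 104, 99.0 and 114 CPM in recipient cells. Its intervals in the lowest and highest classes were apart in the donor library and overlapped in the recipient library. Those of Rspo3 and Tmeff2 overlapped in both libraries. Median depth was also highest in the upper classes, at 8669, 8166, 9102.5 and 9670 UMIs in the donor library and 7444, 7680.5, 8281 and 9025 UMIs in the recipient library. Its part in the grading was not tested.

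**Figure D4:**
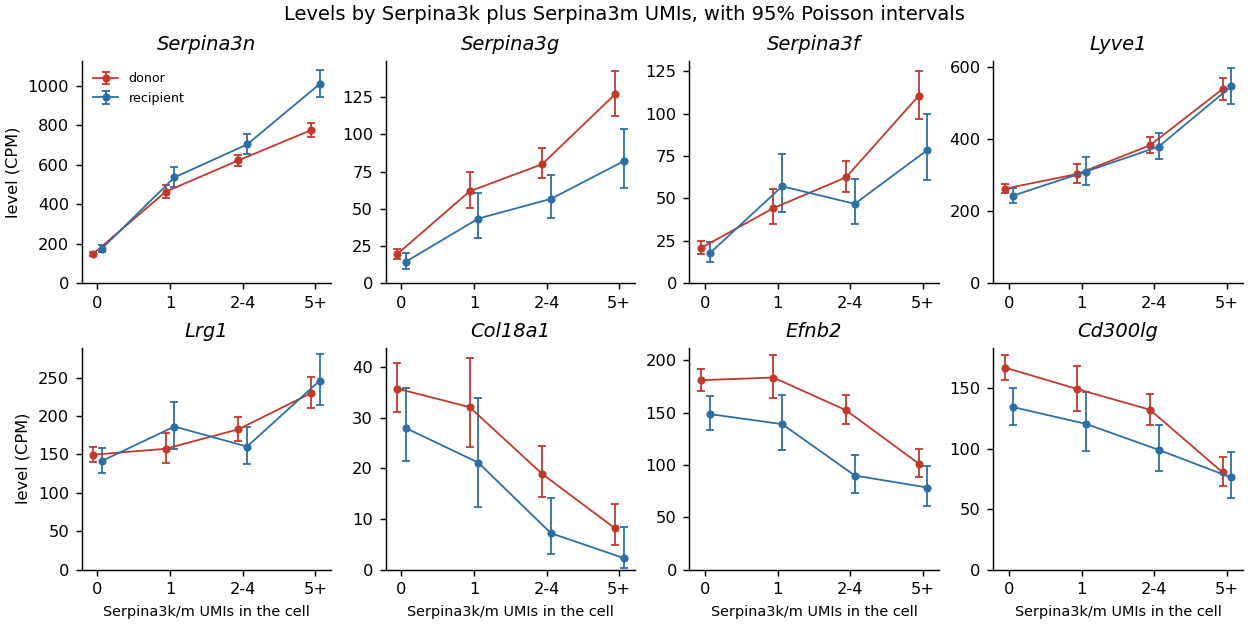
Level (y axis, CPM, from 0) of 8 genes in aerocytes with 0, 1, 2 to 4 and 5 or more Serpina3k plus Serpina3m UMIs (x axis), with red points for the donor library, blue points for the recipient library and bars for 95% Poisson intervals. The 3 serpins, Lyve1 and Lrg1 are highest at 5 or more UMIs in both libraries, and Col18a1, Efnb2 and Cd300lg are lowest there.

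At the far ends of this range more genes separated. In cells with 5 or more UMIs over cells with 0, 34 of 9139 genes (0.372%) were at least 1.5-fold higher in both libraries and 90 (0.985%) were at least 1.5-fold lower. The 34 again include Serpina3k and Serpina3m, set apart by the grouping, and without the 7 genes of the rule 32 of 9132 were higher and 90 lower. The stricter rule was met by 12 higher and 7 lower genes. Beside the 3 serpins, Lyve1 and Lrg1, the higher genes were Pglyrp1, Ttc39c, Itgb7, Fkbp14, Lilrb4a, Serpina1b and Nploc4. Pglyrp1, a secreted protein that binds bacterial peptidoglycan, stood at 41.4 against 23.2 CPM in the donor library and 46.2 against 25.2 CPM in the recipient library. Lilrb4a, an inhibitory immunoglobulin-like receptor known from myeloid cells, stood at 69.1 against 44.4 CPM and at 68.1 against 42.4 CPM.

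Itgb7, the integrin beta 7 chain, stood at 37.3 against 22.2 CPM and at 41.6 against 24.8 CPM. Serpina1b, an alpha-1-antitrypsin gene with near-identical neighbours that counting could confuse, stood at 24.1 against 15.5 CPM and at 50.8 against 30.2 CPM. It was found in only 5.21% against 4.29% of these donor cells and 10.6% against 7.67% of the recipient cells. Pericytes held it at 436 CPM in the donor and 422 CPM in the recipient library. The ratios of Itgb7 and Serpina1b were modest, and the lower bounds of Itgb7 and Fkbp14 in the recipient library were 0.10 and 0.03 on the log2 scale.

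The lower genes of the strongest cells were Col18a1, Cd300lg, Gdf15, Efnb2, Bpgm, Pkd2 and Rnpc3. Col18a1 stood at 8.18 CPM in donor cells with 5 or more UMIs against 35.7 CPM in those with 0, and at 2.31 against 27.9 CPM in the recipient library, where it rested on 2 UMIs and had a log2 ratio of -3.60 (-6.67 to -1.68). Efnb2, encoding ephrin-B2 of arterial and angiogenic endothelium, stood at 101 against 181 CPM and at 78.5 against 149 CPM, with log2 ratios of -0.84 (-1.05 to -0.63) and -0.92 (-1.32 to -0.54). Cd300lg, an adhesion receptor of capillary endothelium, stood at 80.5 against 167 CPM and at 76.2 against 134 CPM.

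Gdf15, a stress cytokine and p53 target, stood at 141 against 238 CPM in the donor library and at 56.6 against 164 CPM in the recipient library, but it was uneven in between, at 201 and 230 CPM in the recipient classes of 1 and of 2 to 4 UMIs. Bpgm, which makes the red-cell metabolite bisphosphoglycerate, stood at 115 against 201 CPM and at 126 against 198 CPM. Over all genes in this contrast 0.985% were lower and 0.372% higher. Of the 15 measured p53 targets, Gdf15 and Eda2r were lower and 0 were higher. Of the 18 measured interferon genes, Ifit1 and Gbp2 were lower and 0 were higher, although the recipient intervals of Ifit1, Gbp2 and Eda2r included equality. Cdkn1a, the classical p53 target, was not among the lower genes. The median log2 ratio of the p53 list was -0.30 in the donor and -0.19 in the recipient library. That of the interferon list was -0.01 and 0.008, beside -0.025 and -0.023 over all genes measured. Counts this small are not read here as a change of either pathway, and the lower p53 medians were not tested.

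Lyve1 levels differed between aerocytes with a Serpina3k UMI and those with Serpina3m only. In donor aerocytes Lyve1 stood at 511 CPM (449 to 579) with Serpina3k only, at 505 CPM (480 to 530) with both and at 311 CPM (292 to 330) with Serpina3m only, against 263 CPM (250 to 276) with neither. In the recipient library it stood at 435 CPM (354 to 528), 490 CPM (451 to 532) and 341 CPM (310 to 373), against 244 CPM (224 to 265). The classes with a Serpina3k UMI were higher in both libraries, although the recipient class with Serpina3k only had 30 cells and its interval overlapped that with Serpina3m only. The donor class with Serpina3k only had 58 cells, and the intervals do not cover the spread between cells.

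Serpina3n did not divide in that way. It stood at 527, 731 and 551 CPM in donor aerocytes with Serpina3k only, with both and with Serpina3m only, and at 560, 970 and 593 CPM in the recipient library. Cells with only 1 of both transcripts thus held similar Serpina3n, and cells with both held more. The classes were compared after their values had been seen.

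Differences in the Serpina3 genes between donor and recipient Serpina3k/m aerocytes varied by gene, and those of Serpina3n, Serpina3g and Serpina3f were similar in other aerocytes. The rule genes are given as a description. Serpina3k stood at 149 CPM in donor against 162 CPM in recipient cells, and Serpina3m at 271 against 292 CPM. Serpina3n stood at 631 against 750 CPM, a log2 ratio of -0.25 (-0.32 to -0.17), and Serpina3g at 90.2 against 60.7 CPM, a log2 ratio of 0.57 (0.32 to 0.82). Serpina3f stood at 73.0 against 59.7 CPM, a log2 ratio of 0.29. In other aerocytes the donor over recipient log2 ratios were -0.23 for Serpina3n, 0.43 for Serpina3g and 0.24 for Serpina3f. Serpina3c, with 21 and 14 UMIs, passed the fold as lower in donor cells, at 2.98 against 5.03 CPM, with a log2 ratio of -0.75 whose interval (-1.80 to 0.33) includes equality. Lyve1 stood at 413 against 412 CPM. Of the 16 measured aerocyte markers 0 were 1.5-fold apart, beside 3.5% of all genes higher and 8.96% lower in donor cells.

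Beyond these genes, 383 of 10948 genes with at least 20 UMIs (3.5%) were at least 1.5-fold higher in donor than in recipient Serpina3k/m aerocytes and 981 (8.96%) were at least 1.5-fold lower. In other aerocytes the corresponding shares were 3.95% and 8.25% of 10673 genes, so the Serpina3k/m aerocytes were not set apart by the number of such genes. The naming rule, at least 2-fold with an interval excluding 1.5-fold, was met by 7 higher and 115 lower genes.

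Higher in donor cells were Cd93, Ptprb, Vwf, Tek, Pf4, Nrgn and Acta2. Cd93, an endothelial lectin-like receptor of general capillary cells, stood at 24.7 against 2.88 CPM, a log2 ratio of 3.10 (2.09 to 4.34), and in other aerocytes at 26.4 against 14.4 CPM. Ptprb, the phosphatase that restrains the angiopoietin receptor Tie2, stood at 52.1 against 8.63 CPM, and Tek, which encodes Tie2, at 36.2 against 17.3 CPM. Vwf, encoding the clotting protein von Willebrand factor, stood at 20.7 against 6.83 CPM. Pf4 and Nrgn, both known from platelets, had 77.3% and 81.7% of their donor UMIs in 5 cells. Of the 6 measured MHC class II genes 5 were higher in donor cells, beside 3.5% of all genes. Cd74, the class II chaperone, stood at 53.1 against 27.7 CPM, with 66.2% of its recipient UMIs in 5 cells. This was not particular to the Serpina3k/m aerocytes. The list's median log2 ratio was 0.96 in them and 1.24 in other aerocytes, where Cd74 stood at 57.7 against 23.4 CPM.

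The 8 lower genes with the largest ratios were Hhip, Pdgfra, Loxl1, Mgp, Col1a1, Ogn, Dcn and Ces1d, which are known from mesenchymal cells. Mgp, an inhibitor of calcification, stood at 4.40 CPM in donor against 503 CPM in recipient cells, and 5 cells held 72.8% of the recipient UMIs. Hhip, an inhibitor of hedgehog signalling, was at 0 UMIs in donor cells and at 64.3 CPM in recipient cells, at least 151-fold lower in donor cells taking 3 counts over the group as the floor, and 5 cells held 92.7% of the recipient UMIs. Similarly, 62.9% to 82.4% of the recipient UMIs of the remaining 6 genes lay in 5 cells.

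Markers of other cell types moved with the library. All 9 measured pericyte markers and all 8 measured fibroblast markers were lower in donor cells. The pericyte list summed to 67.3 against 648 CPM, with 0 markers at 0, and the fibroblast list to 17.0 against 471 CPM, with Pdgfra and Col14a1 at 0 in donor cells. All 4 measured airway markers were lower as well, and the 6 airway markers summed to 3.84 against 132 CPM, with Scgb3a2 and Foxj1 at 0 in donor cells. Of 10 measured general capillary markers, Kit, Cd93, Glp1r and Edn1 were higher in donor cells and 0 were lower. The 8 leukocyte markers summed to 0.994 against 1.80 CPM, with Cd52, Tyrobp, C1qa, S100a8, Cd3e and Cd79a at 0 in donor cells and Ptprc, Cd52, S100a8, Cd3e and Cd79a at 0 in recipient cells. The part of these cell types in the differences between the libraries was not tested. Off-type UMIs were counted over the pericyte, fibroblast, smooth muscle, leukocyte, and red cell and platelet lists, without the airway and general capillary lists. More than 2 of them were found in 4.72% of donor and 21.4% of recipient Serpina3k/m aerocytes, and in 4.43% and 22.3% of other aerocytes.

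Without those cells, 490 genes were higher and 609 lower in donor cells. Cd93 then stood at 25.0 against 2.44 CPM, Ptprb at 51.6 against 6.82 CPM and Tek at 37.0 against 17.5 CPM, as large a difference as before. Mgp stood at 1.51 against 97.5 CPM. Acta2 turned round, at 0.903 against 1.95 CPM. Serpina3n stood at 633 against 779 CPM, Serpina3k at 150 against 174 CPM and Serpina3m at 274 against 305 CPM.

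**Figure D5:**
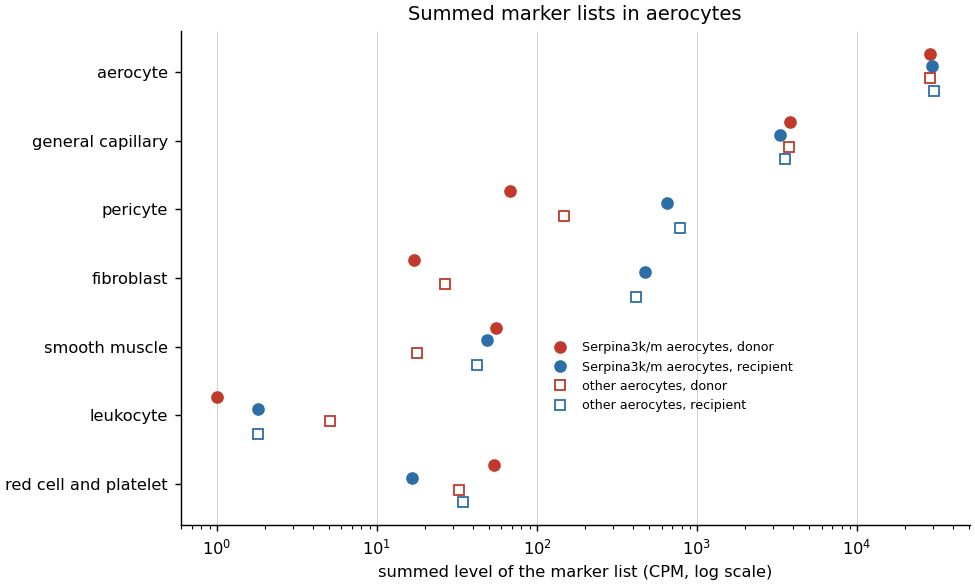
Summed level (x axis, CPM, log scale) of 7 marker lists (y axis) in Serpina3k/m aerocytes (filled circles) and other aerocytes (open squares), red for the donor library and blue for the recipient library. The summed levels of the aerocyte and general capillary lists are close in all 4 groups. Tmem100 alone gives 2375 of 3803 CPM of the general capillary sum in donor Serpina3k/m aerocytes and 2134 of 3312 CPM in recipient ones. The sum therefore does not show the 4 general capillary markers that were higher in donor cells. The pericyte and fibroblast lists are higher in both groups of the recipient library, at 648 and 471 CPM in its Serpina3k/m aerocytes.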

How the data were processed

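The authors deposited UMI counts that had not been normalized, 1 matrix of called cells for each library, aligned to mm10 in Cell Ranger per the labels' protocols. The version is 4.0.0 per the file headers and per the submitters' processing notes, but 3.0.1 in the protocol. Barcode and gene names were used as deposited by the authors, and 32158 of 32285 gene identifiers matched GENCODE M21. The authors' integrated values and cell labels were not used here. Cells were chosen by the limits stated in the opening. Cell groups for comparison were set by UMI limits as well: general capillary cells had over 3 Plvap, at least 3 Gpihbp1 and at most 1 Ednrb UMIs.

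UMIs were summed per group and library and scaled to CPM. Ratios carry exact conditional intervals, shares exact Clopper-Pearson intervals and levels exact Poisson intervals, at 95% and for counting error only. A gene was past the fold at 1.5-fold in both libraries with at least 20 UMIs in each. Named genes also needed 20 CPM in the higher group and intervals excluding equality, up to 15 each way. Between libraries they needed 2-fold and an interval excluding 1.5-fold, up to 8 each way. From 22 gene lists and 14 marker lists, members past the fold were named. Mitochondrial, ribosomal, haemoglobin, sex-linked and unnamed genes and the 7 genes of the rule were left out of naming. The members, lists and rules were chosen with earlier results of these data known.

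Scrublet in scanpy 1.11.5 marked 2 donor barcodes (0.0317%), a failed call, and 135 recipient barcodes (3.57%), so doublets were kept and the 319 and 115 highest scores were removed as an alternative. Alternatives also changed the mitochondrial limit (5 or 10%), UMI minimum (3000), aerocyte limits, shared barcodes, weighting and the Serpina3k/m limit. The ratio calculation was tested on simulated data. Loop sequences were translated and aligned with Biopython in Python 3.11.15.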

Additional observations from a re-analysis of the deposited data

Results flagged for a closer look

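Pf4, a platelet chemokine, differed in opposite directions between the libraries. It stood at 32.0 CPM in Serpina3k/m aerocytes against 18.9 CPM in other aerocytes of the donor library, a log2 ratio of 0.76 (0.43 to 1.09), and at 8.27 against 20.7 CPM in the recipient library, a log2 ratio of -1.33 (-2.12 to -0.57). In donor Serpina3k/m aerocytes 28 cells carried it and 5 of them held 77.3% of its UMIs, while 5 recipient cells held them all.

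Iigp1, an interferon-inducible GTPase, also went opposite ways. It stood at 26.0 against 39.5 CPM in the donor library, a log2 ratio of -0.60 (-0.89 to -0.32), and at 32.3 against 17.6 CPM in the recipient library, a log2 ratio of 0.88 (0.32 to 1.46). For both genes the difference between the libraries was not tested, since each library is a single sample.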

How the results depend on the processing

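Of 58 recomputed summary values, 45 moved by less than their interval or by less than 1.5 times for counts, and 13 moved further. The 29 genes higher in Serpina3k/m aerocytes, Serpina3k and Serpina3m included, became 18 without shared barcodes and 19 without cells with off-type marker UMIs, a setting chosen after seeing the data, as was that of 5 or more UMIs. The 22 lower genes became 42 without the highest doublet scores and 42 with a limit of 2 UMIs. They became 51 with the other aerocytes weighted by depth, 50 with equal weight per cell, 68 with Il1a-positive cells left out of the other aerocytes, and 90 with 5 or more UMIs against 0. The 981 genes lower in donor cells became 609 without off-type cells, where fewer cells were left and the number of genes measured is not given. The share of Serpina3k/m aerocytes became 37.6% of donor and 37.0% of recipient aerocytes at 2 UMIs, and 42.8% and 44.9% after thinning. The causes of these shifts were not tested.

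Of 251 recomputed ratios of named genes, 224 stayed within their interval, 24 moved in size and 3 reversed. All 3 concern Acta2 in donor over recipient cells, at -3.72 without shared barcodes, -1.11 without off-type cells and -0.0047 with equal weight per cell. Over the alternatives run, the log2 ratio over other aerocytes lay between 1.97 and 2.38 (donor) and 2.04 and 2.53 (recipient) for Serpina3n, between 2.09 and 2.71 and 2.03 and 2.51 for Serpina3g, between 1.69 and 2.42 and 1.56 and 2.18 for Serpina3f, between 0.59 and 1.04 and 0.70 and 1.17 for Lyve1, and between -2.13 and -0.92 and -3.60 and -1.34 for Col18a1. No paired analysis was possible because each group is 1 library. Genes under 20 UMIs were not measurable at this depth.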

Other observations

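Apln, the aerocyte ligand apelin, stood at 510 CPM in Serpina3k/m aerocytes against 447 CPM in other aerocytes of the donor library and at 498 against 425 CPM in the recipient library, below the limit of 1.5-fold. Over the classes of 0, 1, 2 to 4 and 5 or more Serpina3k plus Serpina3m UMIs it stood at 447, 461, 500 and 562 CPM in donor cells and at 425, 416, 499 and 573 CPM in recipient cells. Kdr, the receptor for vascular endothelial growth factor, stood at 1934 against 1988 CPM in the donor library and at 2079 against 2087 CPM in the recipient library.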
